A study of Homo sapiens with 6 samples.

Results

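Bidirectional protein-coding promoters were taken as pairs of protein-coding genes on opposite strands whose canonical transcription start sites (TSSs) lay head to head, with the start of the minus-strand gene upstream of the start of the plus-strand gene and at most 1000 bp between them. On chromosomes 1 to 22 and X, GENCODE 44 held 984 such pairs, made of 1895 of 19970 protein-coding genes, or 9.49%. A gene can have 2 partners, and 72 genes were in more than 1 pair. The region of a pair ran from 3 kb outside one TSS to 3 kb outside the other. Pairs are written with the minus-strand gene first.

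The data were ChIP-seq peak lists of cells labelled HepG2, a human hepatoblastoma line. Control cells were cultured without sodium benzoate (SB), a food preservative from which cells make benzoyl-CoA, and treated cells received 10 mM SB for 24 h. Pan antibodies, which bind the modified residue at any position, were used against acetylated lysine (Kac) and benzoylated lysine (Kbz). Of the 6 libraries, 1 in each of 6 groups (input, Kac and Kbz, each without and with SB), the peak lists of control Kac, SB Kac and SB Kbz were used; according to the labels no peak was called for control Kbz, and the inputs were not analysed here.

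The control Kac list held 70326 peaks over 130 Mb, the SB Kac list 63282 over 115 Mb and the SB Kbz list 24308 over 32.3 Mb. Peak lists carry no read totals, so depth was unknown, and a deeper library can give more and longer peaks from the same chromatin. Each group was a single library, so there was no spread between replicates to measure a difference against, and no test between groups was made. The ranges in parentheses after a share are Wilson 95% intervals over the counted pairs or genes and cover counting error only. They treat these as independent. The genes of a pair often lie under the same peak, and the regions of 143 pairs overlap that of another pair. Intervals over pairs and pair genes are therefore too narrow. The cell type label was also checked at 41 genes of liver products: control Kac marked 17 within 3 kb of the TSS, SB Kac 16 and Kbz 9, while 20 were marked in no list. Of all protein-coding genes, 73.1%, 72.1% and 60.5% were marked within the same distance. The 20 included ALB, AFP, APOB, TTR, SERPINA1, FGA, FGB, FGG and HP, which are defining genes of hepatocytes and their tumours. Other liver genes were marked, among them APOA1, APOA2, APOA5, APOC1 and APOE in all 3 lists and F2 and AHSG in both Kac lists. The bearing of this on the results below was not tested.

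In a bidirectional promoter a single stretch of open, usually CpG-rich DNA serves divergent genes, and RNA polymerase II is loaded in both directions from it. Many such pairs encode housekeeping proteins of DNA repair, mitochondria and RNA metabolism, and the paired H2A and H2B histone genes are a classic example. Acetyl groups on histone lysines are a general feature of active promoters, and benzoyl groups are placed on the same kind of residue from another acyl-CoA donor. Here the question was how peaks of both marks lay over the shared promoter and into the gene on each side.

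The TSSs of the pairs were close together. The median distance was 234 bp, from 11 to 1000 bp, and 624 of the 984 pairs lay within 300 bp. In the sequence of the 300 bp around the midpoint, the median G+C content was 64.0% and the median ratio of observed to expected CpG was 0.880. By the usual criteria (G+C of at least 50% and a ratio of at least 0.6), 87.0% of the pair windows were CpG-rich. All sequences printed here are the bases strictly between the canonical TSSs, on the plus strand of hg38, with every CG dinucleotide in capitals. The first pair of sequences stands for promoters covered in all 3 lists. SARS2 encodes the mitochondrial seryl-tRNA synthetase and MRPS12 a protein of the small mitochondrial ribosomal subunit. RNF113A encodes a splicing-associated RING finger protein and NDUFA1 a subunit of respiratory complex I; this pair was chosen for printing after its values were seen.
SARS2/MRPS12 (chr19:38930764-38930943): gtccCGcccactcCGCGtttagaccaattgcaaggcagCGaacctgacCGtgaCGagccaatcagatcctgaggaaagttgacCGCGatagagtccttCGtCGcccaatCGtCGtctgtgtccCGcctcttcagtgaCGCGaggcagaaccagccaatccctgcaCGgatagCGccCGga
RNF113A/NDUFA1 (chrX:119871734-119871831): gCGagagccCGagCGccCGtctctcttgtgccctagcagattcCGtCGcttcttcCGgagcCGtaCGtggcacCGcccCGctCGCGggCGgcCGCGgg

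The SARS2/MRPS12 sequence held 18 CG dinucleotides in 180 bases, 4 CCAAT boxes (CCAAT) on the plus strand and a GC box (GGGCGG) on the minus strand. In RNF113A/NDUFA1, 16 CG dinucleotides lay in 98 bases, with 1 ETS core (CCGGAAG, minus strand, bases 52 to 58) and 2 GC boxes. Histone pairs had another composition. They are shown because promoters of the same architecture had peaks in all lists (H2BC11/H2AC11), in the Kac lists alone and away from the TSSs (H2AC14/H2BC14), or in none (H2AC1/H2BC1).
H2BC11/H2AC11 (chr6:27132796-27133042): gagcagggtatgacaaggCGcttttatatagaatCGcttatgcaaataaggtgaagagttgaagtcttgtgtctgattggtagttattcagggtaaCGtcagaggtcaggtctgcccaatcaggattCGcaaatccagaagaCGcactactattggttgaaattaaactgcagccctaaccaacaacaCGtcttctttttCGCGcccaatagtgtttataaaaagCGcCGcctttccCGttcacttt
H2AC14/H2BC14 (chr6:27814778-27815021): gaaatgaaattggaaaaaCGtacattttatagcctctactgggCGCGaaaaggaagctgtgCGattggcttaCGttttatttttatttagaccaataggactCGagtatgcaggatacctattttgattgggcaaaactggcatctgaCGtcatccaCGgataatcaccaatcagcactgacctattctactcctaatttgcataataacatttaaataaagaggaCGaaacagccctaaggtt
H2AC1/H2BC1 (chr6:25726563-25726776): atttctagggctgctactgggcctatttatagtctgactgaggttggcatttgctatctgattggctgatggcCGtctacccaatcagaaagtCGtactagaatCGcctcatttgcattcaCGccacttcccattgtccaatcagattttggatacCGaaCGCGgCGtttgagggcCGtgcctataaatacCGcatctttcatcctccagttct

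Their G+C content was 43.7%, 38.9% and 47.7%, in that order, and they held 11, 9 and 10 CG dinucleotides. Each had several CCAAT boxes and at least 1 TATA box (TATAAA): 4 and 3 in H2BC11/H2AC11, 5 and 1 in H2AC14/H2BC14, and 3 and 2 in H2AC1/H2BC1. In H2BC11/H2AC11, 2 of the 3 TATA matches overlap, at bases 215 to 220 on the minus strand and 217 to 222 on the plus strand. In H2AC1/H2BC1 the TATA boxes lay near both ends and pointed outwards, at bases 26 to 31 on the minus strand and 183 to 188 on the plus strand. The next sequences belong to pairs with peaks in some lists only: MRPL14/TMEM63B in both Kac lists without Kbz, and DDX51/NOC4L in both lists of SB-treated cells without control Kac.
MRPL14/TMEM63B (chr6:44127453-44127553): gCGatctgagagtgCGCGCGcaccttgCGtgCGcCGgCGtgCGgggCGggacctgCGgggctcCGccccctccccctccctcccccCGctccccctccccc
DDX51/NOC4L (chr12:132144320-132144456): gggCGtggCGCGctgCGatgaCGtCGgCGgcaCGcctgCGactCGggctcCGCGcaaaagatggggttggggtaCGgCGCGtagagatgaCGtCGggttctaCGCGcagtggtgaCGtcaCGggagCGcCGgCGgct

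MRPL14, a protein of the large mitochondrial ribosomal subunit, and TMEM63B, a membrane channel, shared a stretch with 81.2% G+C. DDX51 and NOC4L, which both act in ribosome assembly, shared 137 bases with 24 CG dinucleotides and 1 full cyclic AMP response element (CRE, TGACGTCA). The last sequences are of pairs without a peak in any list, 2 of them rich in G+C and 1 poor in it.
DMGDH/BHMT2 (chr5:79069675-79069766): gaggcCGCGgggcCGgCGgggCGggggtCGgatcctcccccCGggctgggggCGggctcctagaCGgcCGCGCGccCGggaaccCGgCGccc
DUOX2/DUOXA2 (chr15:45114173-45114325): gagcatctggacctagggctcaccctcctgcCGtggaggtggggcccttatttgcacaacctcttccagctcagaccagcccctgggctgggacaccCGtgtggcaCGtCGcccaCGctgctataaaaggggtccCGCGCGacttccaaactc
OR11A1/OR2H1 (chr6:29457072-29457154): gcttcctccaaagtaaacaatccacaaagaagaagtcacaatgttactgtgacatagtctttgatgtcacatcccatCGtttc

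DMGDH and BHMT2 are enzymes of choline and methionine metabolism, and their 92 bases held 87.0% G+C and 15 CG dinucleotides. DUOX2, an NADPH oxidase of thyroid and epithelia, and its maturation factor DUOXA2 had 8 CG dinucleotides in 153 bases. OR11A1 and OR2H1, olfactory receptor genes, had 1 CG dinucleotide in 83 bases.

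Nearly all pair regions held a peak. Control Kac was found in 951 of 984 regions, or 96.6% (95.3 to 97.6), SB Kac in 952, or 96.7% (95.4 to 97.7), and Kbz in 920, or 93.5% (91.8 to 94.9). Within 3 kb of the TSS, 73.1% of all protein-coding genes had a peak of the control Kac list, 72.1% of the SB Kac list and 60.5% of the Kbz list. These backgrounds are per gene and include the pair genes.

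At the TSSs themselves the lists stood further apart. Control Kac covered both TSSs in 878 pairs, or 89.2% (87.1 to 91.0), SB Kac did in 897, or 91.2% (89.2 to 92.8), and Kbz did in 786, or 79.9% (77.3 to 82.3). This order changed when each list was cut to its 15000 peaks of highest -log10 p. Both TSSs were then covered in 60.8%, 78.4% and 72.9% of pairs. In the full lists, cover of 1 TSS without the other was rare, with 22, 22 and 42 pairs, and no TSS was covered in 84, 65 and 156 pairs. Whenever both TSSs were covered, a single peak spanned them, in 878 of 878, 897 of 897 and 786 of 786 pairs. The broad format of the lists joins neighbouring enriched stretches into 1 peak.

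**Figure D1:**
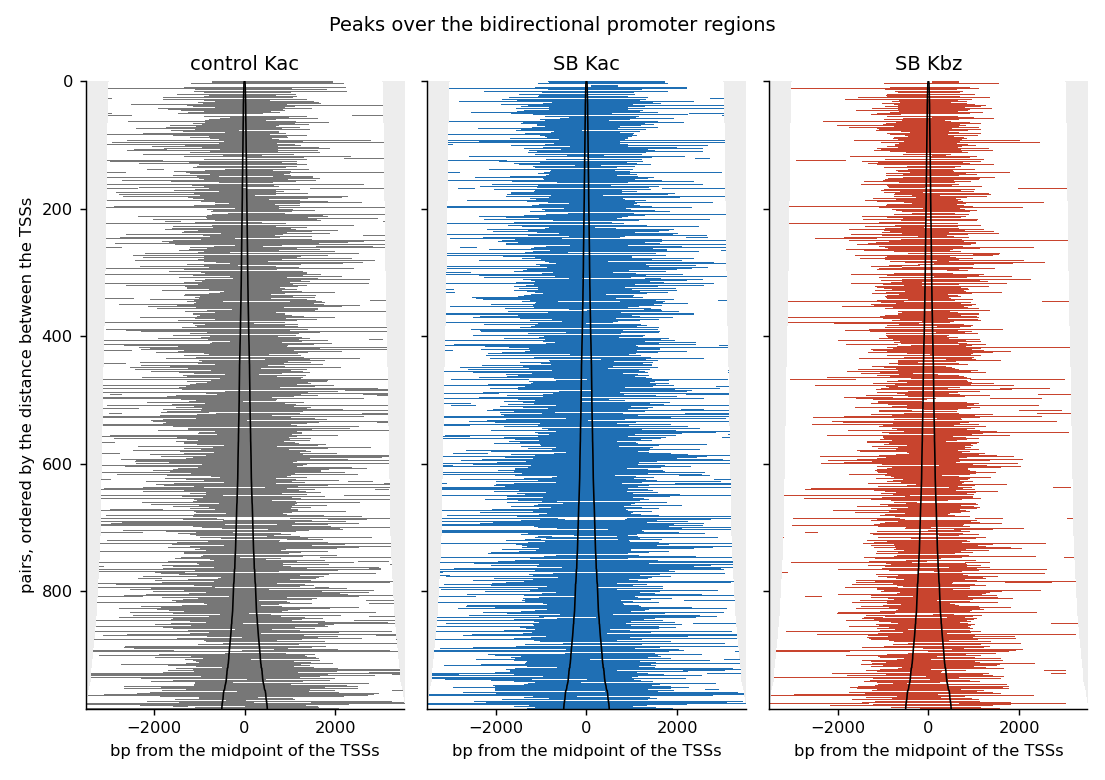
Peaks over all 984 pair regions, 1 row per pair, ordered by the distance between the TSSs; the horizontal axis gives bp from the midpoint, black lines mark the TSSs, coloured stretches are bases under a peak and grey is outside the region. In each of the 3 lists the cover is centred on the space between the TSSs, and it is narrowest in SB Kbz.

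By gene, the canonical TSS of 1710 of 1895 pair genes was covered by control Kac, of 1748 by SB Kac and of 1551 by Kbz. These are 90.2%, 92.2% and 81.8%, against 59.3%, 60.5% and 45.9% of all protein-coding genes. Before a split by CpG content, the step from pairs to other promoters was graded. Genes head to head with a long non-coding RNA within 1000 bp (1875 genes) had shares of 77.1% (75.1 to 78.9), 80.1% (78.2 to 81.9) and 66.0% (63.9 to 68.1). Coding pairs more than 1000 and at most 10000 bp apart (1583 genes) came next with 65.1%, 65.1% and 49.3%. The 12712 genes with no head-to-head start within 10 kb, called single genes here, had 51.9% (51.0 to 52.8), 52.7% (51.8 to 53.5) and 37.7% (36.9 to 38.6). In each list the intervals of these 4 classes, over genes counted as independent and before a split by CpG content, did not overlap. Expression, which could differ between the classes, was not measured in these files, and its part was not tested.

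**Figure D2:**
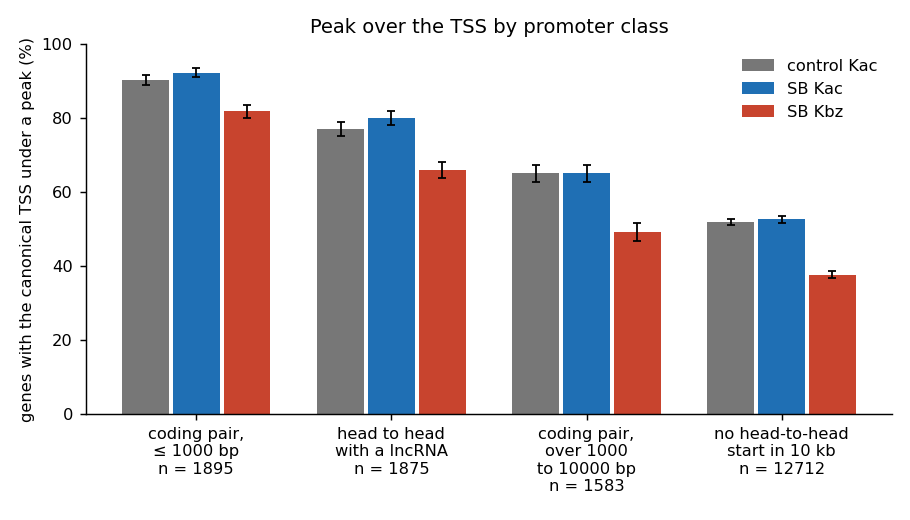
Percent of genes whose canonical TSS was covered in control Kac (grey), SB Kac (blue) or SB Kbz (red), in 4 classes of promoter with the number of genes below each; error bars are Wilson 95% intervals. The bars, not split by CpG content, step down from coding pairs within 1000 bp (81.8% for Kbz) to single genes (37.7%).

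Kbz followed Kac more often in the pairs. Where the TSS was under an SB Kac peak, it was also under a Kbz peak for 88.6% (87.0 to 90.0) of pair genes, 82.3% (80.3 to 84.1) of genes beside a long non-coding RNA, 75.3% (72.6 to 77.9) of genes of wider pairs and 71.2% (70.1 to 72.2) of single genes. In bases, Kbz covered 60.4 bases per 100 SB Kac bases in the pair regions, against 28.0 in the whole lists. Pair regions held 2.16% of all bases under control Kac peaks, 2.61% under SB Kac and 5.63% under Kbz. The whole lists also take in peaks away from promoters. Among promoters the classes were closer. Within 3 kb of the TSS, SB Kac and Kbz covered 50.3% and 30.7% of the bases at pair genes. Beside a long non-coding RNA they covered 47.1% and 25.6%, at all protein-coding genes 34.0% and 17.9%, and at single genes 28.8% and 14.3%.

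The difference between pair genes and single genes was found in promoters with and without high CpG content. Among promoters that were not CpG-rich (250 bp before to 50 bp after the TSS), the TSS was covered for 77.5%, 77.5% and 64.3% of 182 pair genes, in the order control Kac, SB Kac and Kbz, against 25.2%, 23.0% and 12.0% of single genes. Among CpG-rich ones the shares were 91.6%, 93.8% and 83.7% of 1713 pair genes and 70.6%, 73.4% and 55.7% of single genes. Here genes beside a long non-coding RNA had 80.2%, 83.6% and 69.2%. Genes of wider pairs had 81.0%, 82.1% and 68.0%, with intervals that overlapped those beside a long non-coding RNA. In promoters that were not CpG-rich, the former had 43.8%, 43.1% and 31.9% and the latter 40.5%, 38.5% and 20.3%. There the intervals of these classes overlapped in both Kac lists and not in Kbz.

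Some short motifs were more frequent at the pairs. Motifs were sought on both strands of the window from 250 bp before to 50 bp after each TSS; none contains another. An ETS core stood in 31.7% of the windows of pair genes, against 10.6% at single genes and 14.1% at all protein-coding genes. For the NRF1 core (GCGCATGC) the shares were 7.28%, 3.62% and 4.25%, for the YY1 core (AAGATGGCG) 6.28%, 2.22% and 2.84%, and for the palindrome TCTCGCGA 3.85%, 1.20% and 1.72%. TATA boxes were less frequent at pair genes (3.85%, against 11.2% and 9.73%). The genes of a pair share much of this window, so the shares are not over independent windows. Windows also differed in composition, with 90.4% CpG-rich at pair genes, 58.9% at single genes and 65.5% at all protein-coding genes. Motif shares were not compared within CpG classes.

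Within the pairs, cover was compared by 9 motifs and by CpG content in the 300 bp around the midpoint. Both TSSs were under Kbz in 81.7% (78.9 to 84.1) of 856 CpG-rich pairs and in 68.0% (59.5 to 75.4) of the other 128, and in 87.1% (82.9 to 90.4) of 303 pairs with an ETS core and 76.7% (73.3 to 79.7) of 681 without it. For SB Kac the shares were 92.6% (90.7 to 94.2) and 81.2% (73.6 to 87.1) by CpG content, and 95.7% (92.8 to 97.5) and 89.1% (86.6 to 91.3) by the ETS core. The differences in Kbz were of similar size, with overlapping intervals, for the E-box (CACGTG, 88.7% with and 78.8% without), the YY1 core (91.8% and 79.3%), TCTCGCGA (91.4% and 79.5%), the NRF1 core (87.7% and 79.3%) and, in the other direction, the TATA box (70.5% and 80.3%). For the CRE they were 86.0% and 79.6%, for the GC box 79.5% and 80.8% and for the CCAAT box 79.1% and 80.5%, also with overlapping intervals. These are matches of letters in a window and say nothing of bound factors.

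By distance, the share was lower in the widest pairs only, with an interval that overlapped the others. Both TSSs were under Kbz in 80.9% of 188 pairs at most 100 bp apart, 81.0% of the next 232 pairs up to 200 bp, 82.1% of 390 up to 500 bp and 72.4% (65.3 to 78.5) of 174 up to 1000 bp. The share of bases between the TSSs under Kbz was 80.3% even in the widest group. At the edge of the rule, the last pairs inside were PASK/PPP1R7 (995 bp), HNRNPA2B1/CBX3 (999 bp) and ATP6V1G2/NFKBIL1 (1000 bp), and the first outside were ABHD14B/ABHD14A-ACY1 (1011 bp), ABHD14B/ABHD14A (1015 bp) and USH1G/OTOP2 (1018 bp).

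Peaks over the pairs reached into both genes, often further into one than into the other. Over all pairs, control Kac covered 45.5% of the region bases, SB Kac 48.6% and Kbz 29.4%, and 90.3%, 91.3% and 82.0% of the bases between the TSSs. The spanning peaks had median lengths of 2820, 3007 and 1942 bp, against 1211, 1196 and 1097 bp in the whole lists and 2738, 2768 and 1740 bp for peaks over the TSS of single genes. Into the minus-strand gene they reached a median of 1189, 1257 and 833 bp, and into the plus-strand gene 1186, 1263 and 805 bp. Within a pair, the side with less cover had a median of 60.2%, 63.7% and 66.6% of the bases of the other side, among pairs with both TSSs covered, and it had less than 50% in 34.2%, 30.9% and 28.8% of them. Across these pairs the reaches into the 2 genes had a Pearson's r of 0.212 (n = 878), 0.268 (n = 897) and 0.164 (n = 786); both reaches of a pair come from the same peak. At single genes the peaks reached 1048 bp upstream and 1466 bp downstream in SB Kac, and 776 and 896 bp in Kbz.

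Strength within a list is given as the percentile of the peak's fold over background. The spanning peaks of the control Kac list stood at a median percentile of 86.7, those of SB Kac at 91.3 and those of Kbz at 74.3. At single genes the peaks over the TSS stood at 82.3, 85.5 and 68.5. In the top 10% of their list were 37.6%, 54.8% and 18.8% of the spanning peaks, against 29.3%, 35.3% and 15.9% at single genes.

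**Figure D3:**
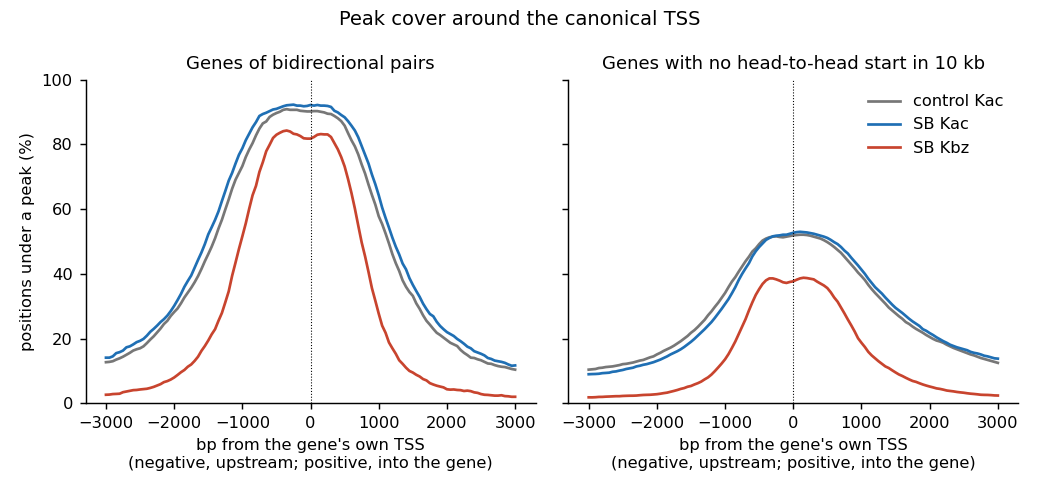
Percent of positions under a peak from 3000 bp upstream to 3000 bp downstream of each gene's own TSS, in steps of 50 bp, for pair genes (left) and single genes (right). For pair genes the curves reach 90.9%, 92.3% and 84.3% in control Kac, SB Kac and SB Kbz at 250 to 350 bp upstream of the TSS, while for single genes they reach 52.1%, 53.0% and 38.8% at 100 to 150 bp downstream.

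The widest Kbz cover was found at SNX5/MGME1, a sorting nexin gene and the gene of a mitochondrial exonuclease, where peaks of all 3 lists covered the whole region of 6225 bp. CBX5/HNRNPA1, which encode heterochromatin protein 1 alpha and an RNA-binding protein, followed with 86.0% under Kbz, 89.3% under control Kac and 88.2% under SB Kac. HCFC1/TMEM187 had 83.4% under Kbz, ACAP3/PUSL1 78.9% and UCHL5/RO60 78.8%. At each of these pairs Kac covered at least as much of the region as Kbz, apart from ACAP3/PUSL1 in control cells, with 75.4% under control Kac.

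At some pairs the cover was nearly all on one side. The largest differences in Kbz cover were at POLR2L/TSPAN4, where Kbz covered 2753 bp on the side of POLR2L, a subunit shared by the RNA polymerases, and 0 bp on the side of TSPAN4, and at SRSF2/MFSD11, with 3000 bp on the side of the splicing factor gene SRSF2 and 268 bp on the other. TAF1D/C11orf54 had 3000 and 400 bp, with the same peak at TAF1D/ENSG00000284057, and ZBTB25/ZBTB1 had 2485 and 0 bp. At POLR2L/TSPAN4 and ZBTB25/ZBTB1 SB Kac covered both sides fully, with 3000 bp on each.

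**Figure D4:**
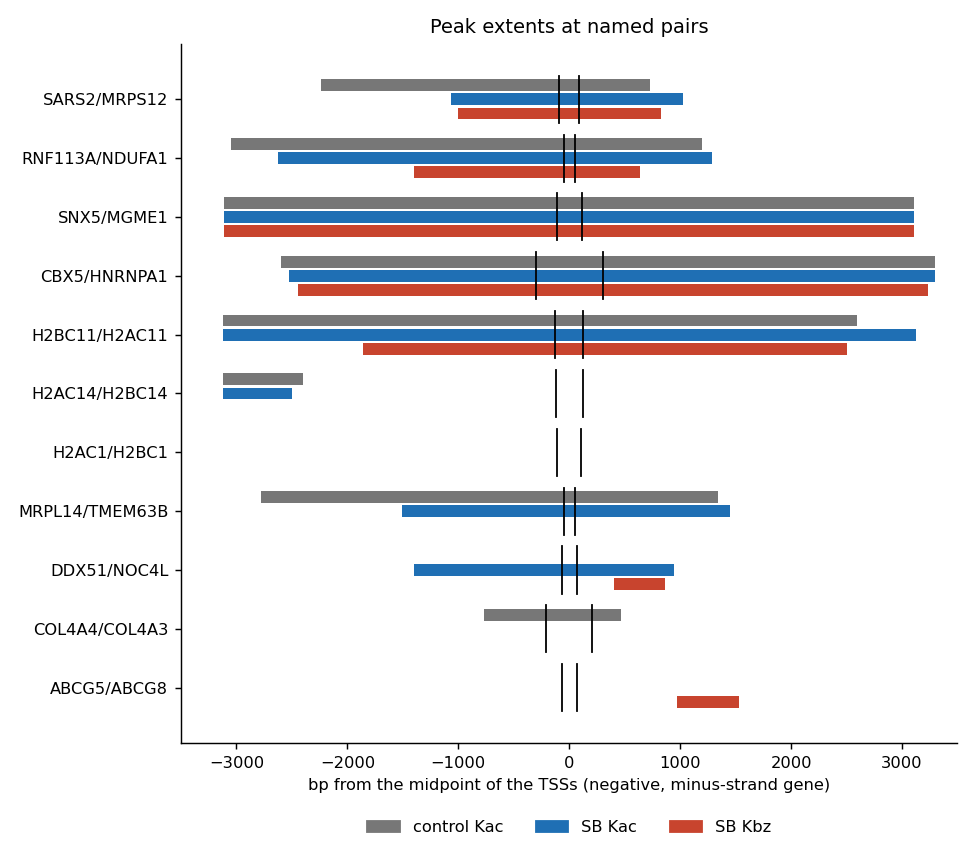
Peak extents at named pairs, with bp from the midpoint of the TSSs on the horizontal axis, vertical lines at the TSSs, and bars for control Kac (grey), SB Kac (blue) and SB Kbz (red). Bars cross both TSSs in the upper pairs, lie beside them at H2AC14/H2BC14 and ABCG5/ABCG8, and are absent at H2AC1/H2BC1.

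Pairs that textbooks name as bidirectional were followed one by one. Of 25 such pairs in the set, 22 had peaks in all 3 lists, and 20, or 80.0%, had both TSSs under Kbz, against 79.9% of all pairs. In DNA repair, NPAT/ATM, the genes of a histone gene coactivator and of the DNA damage kinase, had 53.9% of the region covered by control Kac, 91.2% by SB Kac and 32.5% by Kbz. ZAR1L/BRCA2, with the recombination gene BRCA2, had 38.7%, 41.1% and 30.7%. TMEM258/FEN1, with the flap endonuclease gene, had 35.4%, 84.1% and 49.1%.

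Metabolic and chaperone pairs were covered in all lists as well. PPAT/PAICS, enzymes of purine synthesis, had 89.3% under the peaks of control Kac, 77.5% of SB Kac and 46.6% of Kbz. HSPD1/HSPE1, the mitochondrial chaperonin and its partner, had 69.6%, 77.6% and 39.3%. SURF1/SURF2, of which SURF1 assembles cytochrome oxidase, had 78.0%, 40.9% and 29.2%. At HARS1/HARS2, the cytosolic and mitochondrial histidyl-tRNA synthetases, the values were 42.2%, 29.0% and 20.7%, the lowest Kbz cover of the 22.

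A few of the textbook pairs stood apart. TAP1/PSMB9, the genes of an antigen peptide transporter and an immunoproteasome subunit, had both TSSs under Kac and 1 under Kbz. RECQL4/LRRC14, with a helicase gene, had peaks in every list (23.9%, 29.0% and 50.9% of the region) but none over a TSS. COL4A1/COL4A2, basement membrane collagens, had both TSSs covered in all lists, with 24.6%, 33.2% and 27.0%. The related COL4A4/COL4A3 had 1235 bp under control Kac over both TSSs and 0 bp under SB Kac and Kbz.

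ABCG5/ABCG8, which encode the subunits of a sterol transporter of liver and gut, was the only pair with Kbz and no Kac in either condition. Its Kbz peak covered 558 bp on the plus-strand side and did not reach a TSS. It was also the only pair in the list of liver products.

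Histone genes formed 14 pairs, of which 13 had a peak in each Kac list and 11 in Kbz. The annotated genes H2AC7 and ENSG00000282988 share a start opposite H2BC7 and count as 2 of these pairs. Control Kac covered both TSSs in 10 pairs, SB Kac in 10 and Kbz in 7, that is 71.4%, 71.4% and 50%, against 89.2%, 91.2% and 79.9% over all pairs. Control Kac covered a median of 62.6% of the region, SB Kac 64.5% and Kbz 31.2%, against 43.1%, 46.4% and 28.9% over all pairs. H2BC11/H2AC11 had 91.6%, 100% and 69.8%, and H2AC25/H2BC26 81.2%, 80.7% and 69.8%. H2AC17/H2BC17 had 98.6% under control Kac and 69.7% under SB Kac.

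At the other end of the histone pairs, H3C7/H2BC9 had 22.4%, 23.2% and 11.4%. H2AC14/H2BC14 had 724 bp of control Kac, 623 bp of SB Kac and 0 bp of Kbz, all outside the TSSs, and H2BC8/H2AC8 had 929, 2215 and 0 bp. H2AC1/H2BC1, whose H2B is made in testis, had none. Histone genes are near-identical copies, and the authors kept only reads that map to a single place; 97.3% of the 50-mers of H2AC1/H2BC1 and 84.0% of those of H2AC14/H2BC14 were unique, that is, occurred once in the chromosomes, counted from 1 kb outside one TSS to 1 kb outside the other.

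The counts of the functional groups that follow are to be read against all pairs, of which 96.6%, 96.7% and 93.5% were marked in control Kac, SB Kac and Kbz, and 89.2%, 91.2% and 79.9% had both TSSs covered. A gene with 2 partners counts in 2 pairs, as MRPL47 and MRPL32 do. Over all annotated genes, in pairs or not, Kbz covered the TSS of 71 of 78 mitochondrial ribosomal and 96 of 109 respiratory chain genes. The counts were 131 of 150 in DNA repair and replication and 124 of 252 in the cilium list described below. Mitochondrial ribosomal proteins were in 27 pairs, of which 27, 27 and 26 (100%, 100% and 96.3%) had control Kac, SB Kac and Kbz over both TSSs; the exception in Kbz was MRPL14/TMEM63B, with 4116 bp of control Kac, 2955 bp of SB Kac and 0 bp of Kbz. Subunits and assembly factors of the respiratory chain were in 32 pairs, with both TSSs covered in 32, 31 and 29 (100%, 96.9% and 90.6%). Among them LRRC41/UQCRH had 100% of the region under both Kac lists and 75.8% under Kbz. CCDC127/SDHA, with a complex II subunit, had 1891 bp under control Kac over both TSSs, 646 bp under SB Kac away from them and 0 bp under Kbz. The mitochondrial import list had 10 pairs, with 9, 10 and 9 marked and both TSSs covered in 9, 9 and 8, shares close to those of all pairs; PARG/TIMM23B, with 591 bp under SB Kac only, was the pair without Kbz, and 59.3% of its 50-mers were unique.

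Aminoacyl-tRNA synthetases were in 7 pairs, and all 7 had both TSSs covered in all 3 lists. EARS2/UBFD1 had 34.9%, 39.8% and 36.2% of the region covered, and KARS1/TERF2IP 62.2%, 64.3% and 26.8%. Proteasome genes were in 9 pairs, all marked in each list, with both TSSs covered in 8, 8 and 6 (88.9%, 88.9% and 66.7%). PSMA7/SS18L1 had 939, 924 and 792 bp and no TSS covered in any list. Chaperones were in 19 pairs, with 18, 17 and 17 marked and both TSSs covered in 17 (89.5%) in each list. The chaperone pair HSPA1L/HSPA1A had none in any list, and 64.4% of its 50-mers were unique in the chromosomes, but 0% once the alternate sequences of the reference were counted. At the small heat shock genes CRYAB/HSPB2, 443 bp lay under control Kac, away from the TSSs, and 0 bp under the other lists.

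In DNA repair and replication there were 47 pairs, of which 46, 46 and 45 were marked and 42 (89.4%) had both TSSs covered in each list, which is close to the share of all pairs in Kac and above it in Kbz. DDB1/TKFC, with a DNA damage recognition gene, had 75.8%, 80.2% and 78.4%, and DESI1/XRCC6, with the Ku70 gene, 43.9%, 49.3% and 45.3%. POLE/PXMP2, with the catalytic subunit of DNA polymerase epsilon, had 1077, 1200 and 0 bp and no TSS covered. Subunits of RNA polymerases and general factors were in 29 pairs, all marked in each list, with both TSSs covered in 28, 29 and 26 (96.6%, 100% and 89.7%). CLCN2/POLR2H had 54.6%, 57.1% and 31.8% of the region covered, without Kbz over a TSS. Splicing and RNA processing genes were in 37 pairs, with both TSSs covered in 36, 37 and 34 (97.3%, 100% and 91.9%).

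A list of symbols used for cilium and flagellum genes was in 42 pairs, of which 42, 41 and 38 were marked, with both TSSs covered in 36, 33 and 27 (85.7%, 78.6% and 64.3%). The list took in all coiled-coil domain (CCDC) symbols, many of which are not cilium genes, and 24 of its 42 pairs came in through them. Both TSSs were covered in 21, 20 and 16 of these 24 and in 15, 13 and 11 of the other 18, a split made after the values were seen. Of the 18, all had control Kac, 17 had SB Kac and 17 had Kbz. The exception in Kbz was ZFYVE28/CFAP99, with 2261 bp under control Kac over both TSSs, 334 bp under SB Kac and 0 bp under Kbz. The exception in SB Kac was TOM1L2/DRC3, with 1881, 0 and 327 bp. Zinc finger genes were in 35 pairs, with both TSSs covered in 29, 30 and 25 (82.9%, 85.7% and 71.4%) and a median of 23.1% of the region under Kbz. ZNF558/MBD3L1 had none. The lists of type IV collagens, liver products, and germline and nervous tissue held 2, 1 and 2 pairs, and those of the last were covered over both TSSs in all lists.

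Between control and SB-treated cells, Kac differed in extent more than in presence. In the pair regions SB Kac covered 107 bases per 100 control Kac bases, whereas the whole SB Kac list covered 88.5 per 100. The whole lists also hold peaks away from promoters. Within 3 kb of the TSS, control Kac and SB Kac covered 47.1% and 50.3% of the bases at pair genes. The values were 44.7% and 47.1% beside a long non-coding RNA, 33.6% and 34.0% at all protein-coding genes, and 29.1% and 28.8% at single genes. More bases were under SB Kac in 580 pairs and fewer in 369, with a median difference (SB minus control) of 128 bp and quartiles of -221 and 680 bp. Differences over 1000 bp were found in 154 pairs with more and 86 with fewer. Neither the libraries' depths nor their enrichment are known, so this cannot be told apart from a difference between the libraries.

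**Figure D5:**
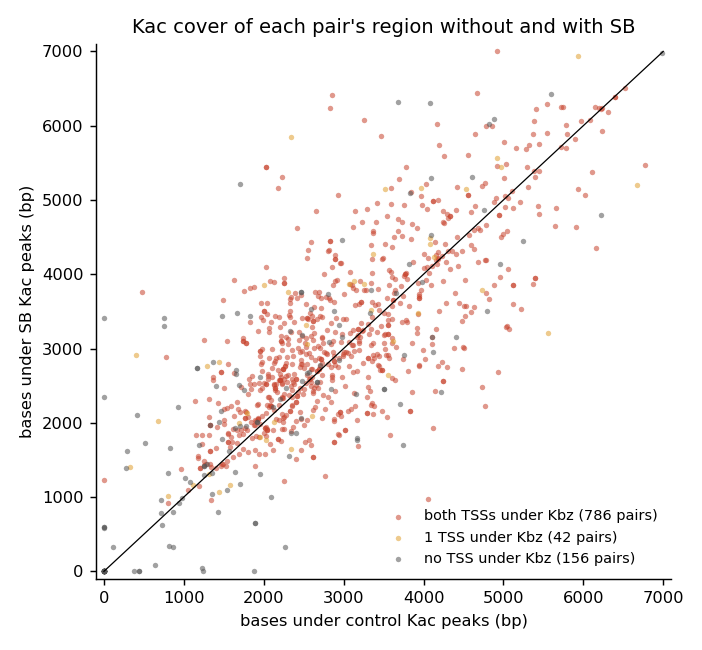
Bases under control Kac peaks (horizontal) against bases under SB Kac peaks (vertical) in each of the 984 pair regions, with the line of equality; colours give the number of TSSs under Kbz (both in 786 pairs, 1 in 42, none in 156). More points lie above the line (580) than below it (369).

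The pairs with the largest differences were EEF1D/TIGD5, with 2853 bp under control Kac and 6417 bp under SB Kac, CRAT/PTPA, with 2342 and 5850 bp, and RNF170/HOOK3, with 1704 and 5211 bp. EEF1D encodes a translation elongation factor and CRAT carnitine acetyltransferase. In the other direction, SEZ6L2/ASPHD1 had 4052 bp under control Kac and 975 bp under SB Kac, and CINP/TECPR2 4766 and 2220 bp.

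Both TSSs were covered in both Kac lists in 865 pairs, in control Kac but not SB Kac in 13 and in SB Kac but not control Kac in 32. A TSS was under Kbz in 13 of the 32 pairs and in 2 of the 13. Over all 984 pairs, no TSS was under Kbz in 156, or 15.9%. A TSS was thus under Kbz less often in both of these groups than over all pairs. Whether Kbz goes with the difference in Kac was not tested.

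Only 5 pairs had control Kac without SB Kac and 6 SB Kac without control Kac anywhere in the region. TSR3/GNPTG had 0 bp of control Kac, 3405 bp of SB Kac and 666 bp of Kbz; TSR3 modifies ribosomal RNA. DDX51/NOC4L had 0, 2344 and 456 bp. ZNF597/NAA60 had 0, 1225 and 696 bp, and MST1/RNF123 0, 579 and 0 bp. In all 4 the SB Kac peak covered both TSSs. These counts depended on the strength asked of a peak: at a -log10 q of at least 5 they were 22 and 150 pairs, and with the 15000 peaks of highest -log10 p in each list 16 and 197.

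Kbz was away from both TSSs in a group of pairs that had SB Kac over both. There were 77 such pairs among the 897, and another 36 had 1 TSS under Kbz. Of the 77, 64 had Kbz elsewhere in the region, 10 on both sides, 30 on the minus-strand side only and 24 on the plus-strand side only, and 13 had none. The strongest SB Kac peak anywhere in the region stood at a median percentile of 77.0 in the 77 pairs and of 92.2 where Kbz covered both TSSs.

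In 31 pairs both Kac lists had a peak and Kbz had none. Their median cover was 1639 bp under control Kac and 1386 bp under SB Kac, against 2820 and 3043 bp in the 915 pairs marked in all 3 lists. Both TSSs were under SB Kac in 12 of the 31. Their strongest SB Kac peak stood at a median percentile of 64.9, against 91.3. The closest pairs among them were DCST2/DCST1, sperm membrane proteins, with 108 bp under control Kac and 329 bp under SB Kac, FAM229A/TSSK3, with a testis kinase, with 1224 and 42 bp, and TRIM50/FKBP6, with 871 and 331 bp. EFL1/SAXO2 had 509 and 1723 bp and DUSP15/TTLL9 3168 and 1801 bp, both over the TSSs. RFNG/GPS1 had 1365 bp under control Kac beside the TSSs and 2814 bp under SB Kac over both.

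No peak of any list lay in 26 regions. The closest pairs were DYDC1/DYDC2 (26 bp apart), CSAG1/MAGEA12 (36 bp), cancer-testis antigens, PARP9/DTX3L (38 bp), partners induced by interferon, and ZNF558/MBD3L1 (73 bp). OR11A1/OR2H1, DMGDH/BHMT2, PLCZ1/CAPZA3, DUOXA1/DUOX1, NLRP7/NLRP2 and DUOX2/DUOXA2 came next; PLCZ1 and CAPZA3 act in sperm. Of the 26, 7 pairs had fewer than 50% unique 50-mers, among them BOLA2/SLX1B (2.34%), BOLA2B/SLX1A (2.31%), FAM72A/SRGAP2 (15.2%) and NLRP7/NLRP2 (44.3%); the authors kept uniquely mapped reads only. None of the 915 pairs marked in all 3 lists was under 50%. With the alternate sequences of the reference counted too, 9 of the 26 and 25 of the 915 were, and OR11A1/OR2H1 went from 89.5% to 0%. Among the 19 uncovered pairs with at least 50%, 12 were CpG-rich.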

How the data were processed

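ChIP-seq peaks of 3 libraries were used, 1 per group (control Kac, SB Kac, SB Kbz). Per the methods and the submitters' processing notes, the authors digested chromatin with micrococcal nuclease, sequenced single 50 bp reads, mapped them to hg38 with Bowtie2 2.2.6, kept unique reads, removed duplicates with SAMtools 0.1.19 and called peaks with MACS2 2.1.1 at a false discovery rate of 0.01, per library. The deposited lists reach a q-value of 0.0494 (lowest −log10 q 1.31). The deposited score was not used; percentiles within a list came from the deposited fold, a ratio to background, and thresholds from −log10 p and −log10 q as deposited.

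Canonical TSSs (Ensembl canonical transcripts) came from GENCODE 44, whose chromosomes and the hg38 sequence matched the peak coordinates. A base was covered if inside a peak, and an overlap needed at least 1 bp. Pairs were described by counts, covered bases and Wilson 95% intervals; no test was possible. Sequence uniqueness was counted in 50-mers. Named pairs were the textbook pairs, the 5 with the highest Kbz cover, the closest 10 without peaks and 10 without Kbz, pairs in 1 Kac list only (up to 10), the 5 most unequal, alphabetical examples of each list, and pairs with Kbz only. Pairs named as extremes of a list or of the Kac difference, and CLCN2/POLR2H and PSMA7/SS18L1 as single examples, were chosen after their values were seen. Members and lists were chosen with earlier results of these data known. The coverage code was tested on simulated data and checked against bedtools 2.31.1. Python 3.11.15, numpy 2.4.6 and pandas 2.3.3 were used. Alternatives were other peak thresholds, distances, TSS choices and windows; restriction to unique pairs was added after seeing the data. Some pairs that meet the rule for naming are not reported here.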

Additional observations from a re-analysis of the deposited data

How the results depend on the processing

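In all, 29 results were recomputed under the alternatives that apply, giving 202 values. Of these, 136 stayed within the interval of the reported share (for shares of bases, an interval over pairs; for counts and base ratios, within 1.5 times), and 66 moved. Shares follow in the order control Kac, SB Kac, Kbz. At a -log10 q of at least 5, a peak lay in 74.6%, 87.6% and 72.2% of the pair regions and covered 35.5%, 44.4% and 23.3% of region bases; the TSS was under a peak for 71.3%, 85.3% and 65.5% of pair genes and 35.3%, 41.5% and 26.6% of single genes; both TSSs were covered in 70.9%, 84.8% and 64.1% of pairs, and 70.8%, 84.1% and 64.7% of the bases between them. With the 15000 peaks of highest -log10 p these values were 62.5%, 80.9% and 82.9%; 30.3%, 41.3% and 26.5%; 60.8%, 78.7% and 74.5%; 29.0%, 37.2% and 31.6%; 60.8%, 78.4% and 72.9%; and 61.2%, 78.6% and 74.5%. At a -log10 q of at least 2, single genes moved in Kac to 51.0% and 51.5%. With 15000 peaks per list, Kbz thus marked more regions than either Kac list and covered both TSSs more often than control Kac. Pair genes stayed above single genes in each list under each of these thresholds.

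With the outermost annotated TSS (887 pairs), an SB Kac peak lay in 95.2% of the regions and Kbz in 91.3%, the TSS was covered for 87.4%, 88.3% and 77.6% of pair genes, both TSSs in 86.7%, 87.7% and 76.3% of pairs, and 86.5%, 86.9% and 76.2% of the bases between them. Counting from 1 kb outside each TSS, peaks covered 82.4%, 85.6% and 67.8% of the bases. Peaks over at least 50% of the region were found in 37.8%, 43.7% and 7.52% of pairs. Kbz among pairs with SB Kac, 96.4% as reported, was 81.3% at a -log10 q of at least 5, 94.3% with the 15000 peaks and 90.0% where a peak had to cover a TSS. Pairs with control Kac only, 5 as reported, were 22 at a -log10 q of at least 5, 16 with the 15000 peaks, 3 with TSSs at most 500 bp apart, 9 with the outermost TSS and 3 without readthrough genes. Pairs with SB Kac only, 6 as reported, were 150 and 197 at the stricter thresholds and 25 where a peak had to cover a TSS. SB Kac bases per 100 control Kac bases stayed above 100 in the pair regions (105 to 136) and below it in the whole lists (84.9 to 99.7). Leaving out pairs with fewer than 50% unique 50-mers moved none of the results recomputed without them. Why the stricter thresholds lower control Kac more than SB Kac was not tested.

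No paired analysis was possible because all groups were single libraries, which also left no replicate to leave out. Depth and signal over background cannot be read from peak lists. A pair without a peak is a pair where none was called at these thresholds, not one without the mark.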
